A study of Mus musculus with 6 samples.

Results

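The BCL2 family decides whether the outer membrane of the mitochondrion stays sealed or opens, the step that commits most cells to apoptosis. Its transcripts are described here in 4T1 breast tumors for 10 genes, chosen by symbol: the guardians Bcl2, Bcl2l1 and Mcl1, the pore-forming effectors Bax and Bak1, and the BH3-only sensors Bcl2l11, Bbc3, Pmaip1, Bid and Bad. Each symbol matched 1 row of the deposited table, so all 10 were found among 16763 genes, and all 10 passed the filter on low counts. The tumors derive from 4T1, a mouse mammary carcinoma line, and the hosts were BALB/c mice. The model group bore such tumors with no treatment named in its labels, and the DMDD liposome group was given DMDD in liposomes, which are lipid vesicles that carry a compound. DMDD is known from the labels only by that abbreviation, and they give no dose, time or age. The labels list all 6 samples as male, although the tumor is of the breast, and call the animals rats, while organism, strain and gene symbols are those of mouse. Each group had 3 libraries. No label ties a library to an animal, so the p-values reflect the spread among these 6 samples, part of which may be technical.

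Guardians hold the effectors and the BH3-only proteins in check by binding the BH3 helix. When stress raises or frees BH3-only proteins, they occupy the guardians or engage Bax and Bak1 directly, and oligomers of Bax and Bak1 then release cytochrome c into the cytosol. Much of this control acts on proteins, by phosphorylation of Bad, cleavage of Bid and rapid turnover of Mcl1 and Pmaip1 (Noxa), and it leaves no mark on transcript counts. Alternative splicing also gives Bcl2l1, Mcl1 and Bcl2l11 products of differing or opposite activity, which counts per gene do not separate.

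Library totals ran from 13037500 to 15616840 counts. Of the 12 epithelial tumor cell markers, all 12 were in the table and 0 were at or under 3 counts in every library, with Krt8 and Krt18, keratins of simple epithelium, among the highest. Model replicate 1 stood apart from the other model libraries in this list, at a summed level of 4285 CPM, counts scaled to a common library size. Model replicates 2 and 3 had 7208 and 6497 CPM, and the treated libraries ranged from 3910 to 4884 CPM. Model replicate 2 carried skin keratinocyte genes, whose 12 markers summed to 252 CPM there and to 9.66 to 16.5 CPM elsewhere. The 11 skeletal muscle markers summed to 149 and 288 CPM in DMDD liposome replicates 1 and 3, and to 34.6 to 65.5 CPM elsewhere. The 8 fat cell markers summed to 42.4 and 93.7 CPM in DMDD liposome replicates 1 and 2, and to 11.2 to 21.9 CPM elsewhere. In such bulk tissue, fewer cells of a type and less RNA per cell cannot be told apart.

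No family member differed between the groups by the test over all genes. With edgeR's quasi-likelihood test and Benjamini-Hochberg adjustment over 12891 genes, 0 of 10 members were called, and 0 genes were called in all (0.0%). At an unadjusted p under 0.05 there was 1 member, Bcl2, beside 7.65% of all genes tested, or 4.34% when only those higher in DMDD liposome are counted. DESeq2 (which called 0.408% of genes), limma-voom and the authors' deposited table (0.346%) also called 0 of 10. The 10 log2 fold changes of DMDD liposome over model ran from -0.20 to 0.54, with 5 of them positive, beside 51.2% of all genes. Their median size regardless of sign was 0.14, beside 0.15 over all genes tested. For 0 of the 10 did the 3 values of one group lie clear of the other's, whereas 12.9% of all genes tested showed such a gap.

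**Figure D1:**
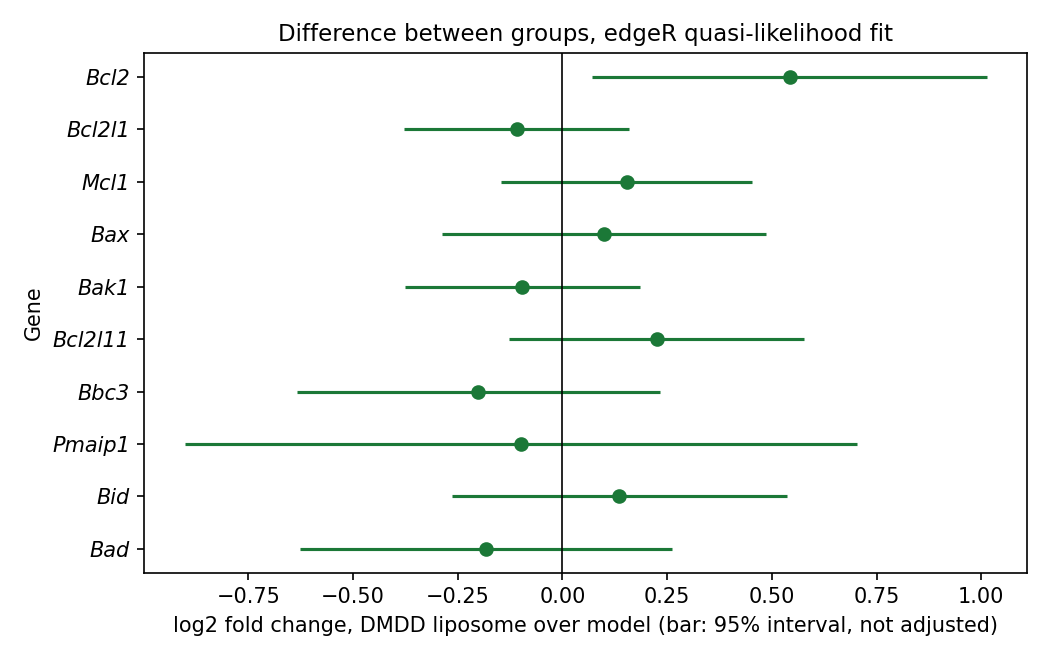
Log2 fold change of DMDD liposome over model for each member (x axis), with its 95% interval not adjusted for the number of genes, from the edgeR fit over 3 libraries per group. The interval of Bcl2, from 0.07 to 1.01, lies above 0 and those of the other genes include 0.

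Within a library the members differed far more than the groups did. On the length-corrected scale of FPKM, over all 6 libraries, Mcl1 was the most abundant member, at a mean of 96.5 and a range of 85.9 to 114. The order below depends on the 1 length per gene behind that scale, such as 867 bases for Bax and 9157 for Bcl2. Those lengths were not checked. Bax followed at 39.3 FPKM and Bak1 at 36.8. These effectors did not separate from each other, Bax being the higher in 3 of 6 libraries, but both lay clear of Mcl1 above and of the remaining genes below. A middle tier held Bcl2l11 at 23.5, Bad at 22.2, Bid at 21.4 and Bcl2l1 at 21.0 FPKM, and neighbours in that order overlapped in range. Bcl2 came next at 11.6 FPKM, below Bcl2l1 in all 6 libraries, and overlapped with Bbc3 at 8.03. Pmaip1 was the lowest, at 3.15 FPKM and 2.10 to 5.01, below Bbc3 in all 6.

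**Figure D2:**
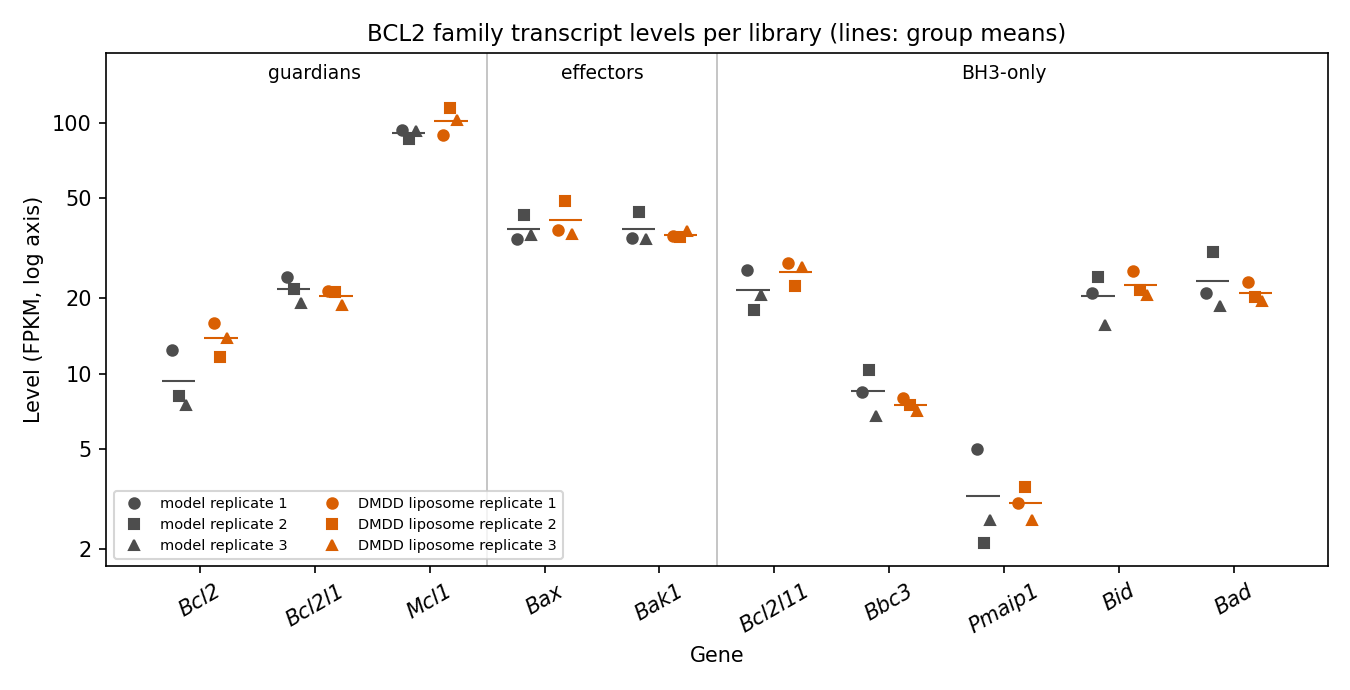
Level of each member in every library, in FPKM on a log axis, with genes grouped by role, 1 marker per library and a line at each group's mean. Mcl1 lies highest, between 85.9 and 114, Pmaip1 lowest, between 2.10 and 5.01, and the groups overlap for Bcl2 through model replicate 1.

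Bcl2, the founding guardian, which binds Bax and Bcl2l11, had the largest difference of the 10 genes. Model replicates 1 to 3 measured 114, 74.3 and 70.3 CPM, and DMDD liposome replicates 1 to 3 measured 142, 108 and 126 CPM. Values below keep this order of replicates. Model replicates 2 and 3 were the lowest of all, while model replicate 1 lay above DMDD liposome replicate 2, so the groups overlapped. The group means were 86.2 ± 24.1 and 125 ± 17.3 CPM (SD, n = 3 each). The log2 fold change was 0.54 ± 0.20 (SE), or 1.46-fold with a 95% interval of 1.05 to 2.02. The unadjusted p in edgeR was 0.0297 and the adjusted p 0.629. In the authors' deposited table, which lists model over DMDD liposome, Bcl2 stood at -0.53 with an adjusted p of 0.419.

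The call for Bcl2 turned on model replicate 1. Without it the log2 fold change was 0.79 ± 0.14 (1.73-fold), with an adjusted p of 0.0626 in edgeR and 0.000269 in DESeq2. DESeq2 then called 867 of 13745 genes (6.31%), and the 438 that were higher in DMDD liposome made up 3.19% of all. In edgeR's fit without that library 112 of 13159 genes were called (0.851%, with 0.327% higher in DMDD liposome), Bcl2 not among them. Without model replicate 3 the change was 0.40 ± 0.21, with an adjusted p of 0.927 in edgeR. The fits with other tools, scalings and filters, the replicate block and each library left out gave a positive sign, from 0.40 to 0.79.

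**Figure D3:**
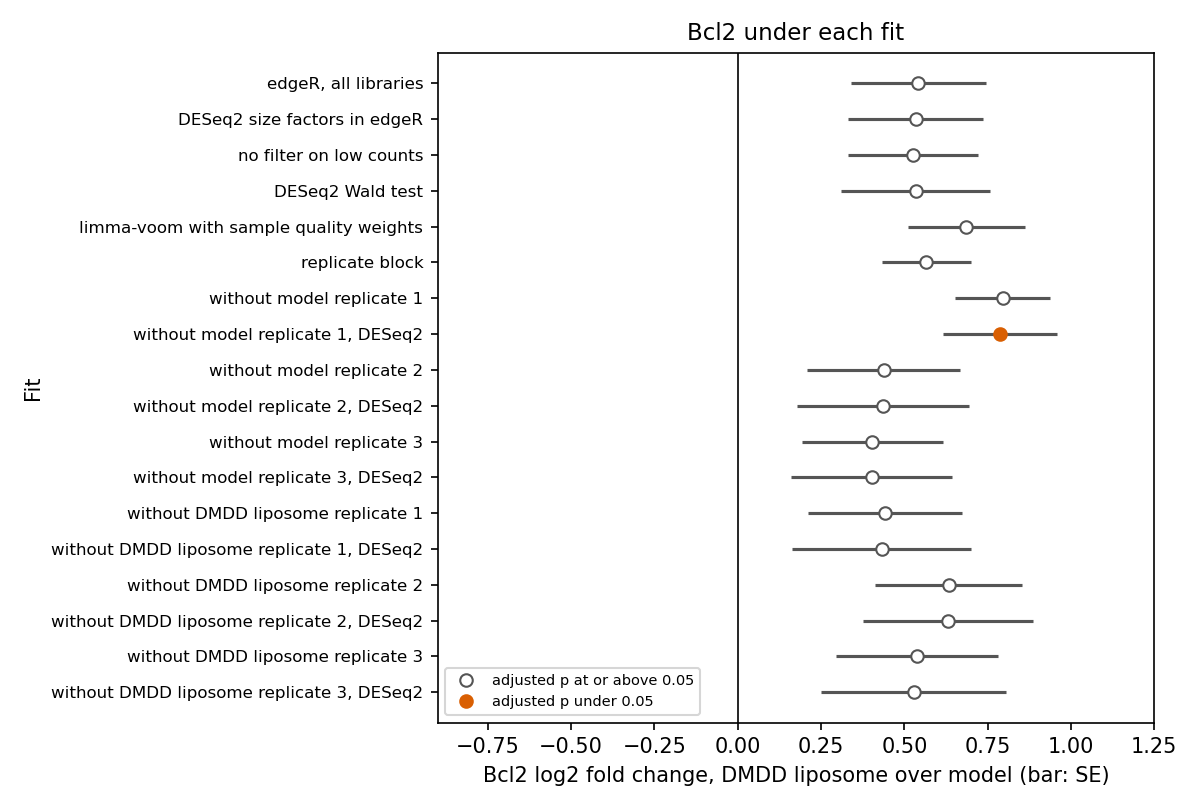
Log2 fold change of Bcl2, DMDD liposome over model, with its SE (x axis), under each fit (rows), where a filled point marks an adjusted p under 0.05. All values shown are positive, between 0.40 and 0.79, and of these fits DESeq2 without model replicate 1 is the one below the threshold, at 0.000269.

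Some marker lists of other cells shared with Bcl2 the low values in model replicates 2 and 3, and others did not. The summed level of 14 macrophage and monocyte markers was 3001, 2376 and 1720 CPM in model replicates 1 to 3 and 4115, 3127 and 3376 CPM in DMDD liposome replicates 1 to 3, so model replicates 2 and 3 were low in both. All 10 endothelial markers had a positive log2 fold change, beside 51.2% of all genes tested. In edgeR 4 of them had an unadjusted p under 0.05, beside 7.65% of all genes, or 4.34% counting only those higher in DMDD liposome. Their sums were 592, 362 and 408 CPM in model and 542, 605 and 531 CPM in DMDD liposome, again lowest in model replicates 2 and 3. DMDD liposome replicate 2 was the highest library for these sums but the lowest treated one for Bcl2. Epithelial tumor cell markers ran the other way, being high in those same libraries. Of those 12 genes, 2 had a positive and 10 a negative log2 fold change. In edgeR 6 of the 12 were lower at an unadjusted p under 0.05, beside 7.65% of all genes in either direction. The groups did not overlap for 4 of them, beside 12.9% of all genes. The 9 mast cell markers were also high in model replicates 2 and 3, at 42.7, 134 and 121 CPM in model and 23.2, 33.1 and 44.8 CPM in DMDD liposome. Of the 7 tested, 6 were negative and 1, Kit, was positive at 0.59. T and NK cell markers, of cells in which Bcl2 is abundant, had 14 of 16 in the table and summed to 78.8, 69.4 and 116 CPM in model and to 162, 59.9 and 193 CPM in DMDD liposome. DMDD liposome replicate 2 was the lowest of its group for these markers and for Bcl2, but model replicate 3 was the highest of its group for these markers and the lowest for Bcl2. B cell markers, with 7 of 8 in the table, summed to at most 1.98 CPM in any library, and Ms4a1, which encodes CD20, had 0 to 2 counts. The part of any of these cells in the Bcl2 difference was not tested.

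Bcl2l11, which encodes the BH3-only protein Bim that binds every guardian, came next by p. It measured 179, 124 and 145 CPM in model and 185, 156 and 182 CPM in DMDD liposome, with model replicate 1 again among the high libraries. The means of 149 ± 27.9 and 174 ± 16.1 CPM (SD, n = 3 each) gave a log2 fold change of 0.23 ± 0.15 and a 95% interval of 0.915-fold to 1.49-fold (edgeR adjusted p = 0.753). It was 0.38 without model replicate 1 and 0.10 without model replicate 2. DMDD liposome replicate 1, DMDD liposome replicate 3 and model replicate 1 led in that order for Bcl2 and Bcl2l11 alike, and model replicates 2 and 3 came last for both. The antagonists were therefore high in the same libraries. Choosing the 2 members with the smallest p-values, both higher in DMDD liposome, favoured such a match. DMDD liposome replicates 1 and 3 were also the highest in skeletal muscle markers, whose part was not tested. The centred log2 CPM of Bcl2 and Bcl2l11 differed by a root mean square of 0.21. That placed Bcl2l11 at rank 332 of 12251 genes by closeness to Bcl2, and Bcl2 at rank 2741 by closeness to Bcl2l11.

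The promoters of these genes are shown because they had the smallest p-values of the 10 and were high in the same libraries. Each window is the 250 bases before an annotated start, from RefSeq on build GRCm38.p6, which differs from the mm9 build named by the submitters. The Bcl2 window is chr1:106714291-106714540 on the minus strand, and the windows of the Bcl2l11 starts are chr2:128125788-128126037 and chr2:128127325-128127574 on the plus strand. Capitals mark, on either strand, the GC box GGGCGG, the cAMP response element core TGACGT, the E-box CACGTG and the FOXO core GTAAACA, none of which overlap each other here.
Bcl2: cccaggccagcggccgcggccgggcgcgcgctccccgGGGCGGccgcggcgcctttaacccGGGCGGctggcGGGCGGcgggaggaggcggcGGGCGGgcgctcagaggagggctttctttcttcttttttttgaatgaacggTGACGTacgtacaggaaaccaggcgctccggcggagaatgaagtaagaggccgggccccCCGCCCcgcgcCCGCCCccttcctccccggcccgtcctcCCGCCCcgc
Bcl2l11 start 1: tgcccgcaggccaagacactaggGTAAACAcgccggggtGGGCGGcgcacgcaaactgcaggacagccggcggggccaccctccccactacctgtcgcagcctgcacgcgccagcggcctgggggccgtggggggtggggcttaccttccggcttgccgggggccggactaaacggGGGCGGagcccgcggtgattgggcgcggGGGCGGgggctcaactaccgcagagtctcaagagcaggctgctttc
Bcl2l11 start 2: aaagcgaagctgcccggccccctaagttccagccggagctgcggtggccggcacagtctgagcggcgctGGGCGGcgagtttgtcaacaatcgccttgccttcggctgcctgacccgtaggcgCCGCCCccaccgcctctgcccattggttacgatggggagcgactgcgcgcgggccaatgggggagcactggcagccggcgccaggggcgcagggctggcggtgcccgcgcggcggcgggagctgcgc
The Bcl2 window held 7 GC boxes and 1 TGACGT, and the Bcl2l11 windows held 3 and 2 GC boxes, the first with 1 GTAAACA. Such matches were not particular to these genes. The windows of Bbc3, whose log2 fold change was negative, held 5, 1 and 7 GC boxes, the second with 1 GTAAACA. Bid and the first start of Bad held 3 GC boxes each, and the windows of Bcl2l1 and Bak1 held 0. The shares that follow count a window once, however many matches it held. Among 32851 windows of the same length over all genes, 32.7% held a GC box, 6.47% TGACGT, 6.02% CACGTG and 3.17% GTAAACA. The matches are letters only, and no binding was measured. Of the 10 members, 9 had a window in the table.

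The genes whose pattern over the 6 libraries came closest to that of Bcl2, by the root mean square difference of centred log2 CPM among 12251 genes, were Ivd (0.04), Npr2 (0.06) and Selenon (0.07). For Bcl2l11 they were Caskin2, Zfp827 and Zfp637, each at 0.04.

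Mcl1, the short-lived guardian that restrains Bak1 and on which neutrophils and many tumor cells depend, measured 319, 293 and 326 CPM in model and 298, 396 and 349 CPM in DMDD liposome. DMDD liposome replicates 2 and 3 lay above every model library and replicate 1 lay within them. The log2 fold change was 0.15 ± 0.13 with a 95% interval of 0.904-fold to 1.37-fold (edgeR adjusted p = 0.801), and it ranged from 0.04 without DMDD liposome replicate 2 to 0.25 without DMDD liposome replicate 1. Neutrophil markers, 11 of 12 in the table, summed to 474, 596 and 545 CPM in model and 508, 793 and 538 CPM in DMDD liposome. Mmp9, a protease that other cells also make, supplied 603 of the 793 CPM. The other 10 genes summed to 272, 207 and 227 CPM in model and to 146, 190 and 121 CPM in DMDD liposome, lower in each treated library than in any model one. S100a8 and S100a9 were the most abundant of these, at log2 fold changes of -0.64 and -0.93. Ltf, Ngp and Mmp8 stood at 0.21, 0.03 and 0.03. Of the 10 neutrophil markers tested, Mmp9 included, 4 were positive and 6 negative. The part of neutrophils in the Mcl1 values was not tested. Bcl2l1, which encodes Bcl-xL, measured 94.2, 84.2 and 76.0 CPM in model and 80.5, 83.0 and 72.4 CPM in DMDD liposome. DMDD liposome replicates 1 and 2 lay inside the model range and replicate 3 just below it. The log2 fold change of -0.11 ± 0.12 had an interval of 0.770-fold to 1.12-fold (edgeR adjusted p = 0.840), and it ranged from -0.19 without model replicate 3 to -0.03 without model replicate 1.

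Summed over Bcl2, Bcl2l1 and Mcl1, guardian transcripts came to 122 ± 7.47 FPKM in model and 136 ± 10.2 FPKM in DMDD liposome (SD, n = 3 each), and the groups overlapped. Mcl1 supplied 70.6% to 77.8% of that sum in every library. The share of Bcl2 was 9.57%, 7.02% and 6.26% in model and 12.6%, 7.90% and 10.2% in DMDD liposome. The share of Bcl2l1 was 18.6%, 18.7% and 16.0% in model and 16.8%, 14.3% and 13.8% in DMDD liposome. Both shares overlapped between the groups.

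Bax, the effector that moves from cytosol to mitochondria on activation, measured 29.7, 37.2 and 31.8 CPM in model and 31.7, 43.1 and 31.1 CPM in DMDD liposome. All but the high DMDD liposome replicate 2 lay inside the model range. The log2 fold change was 0.10 ± 0.17, with an interval of 0.819-fold to 1.40-fold (edgeR adjusted p = 0.896), and it turned to -0.08 without DMDD liposome replicate 2 and to -0.0018 in limma-voom. That library was also the highest for fibroblast markers, whose 10 genes summed to 11777 CPM there and to 4264 to 8076 CPM in the others, and their part was not tested. Bak1, the effector resident in the mitochondrial membrane, measured 82.6, 105 and 84.3 CPM in model and 82.0, 85.1 and 87.7 CPM in DMDD liposome. Model replicate 2, the library with skin genes, was the high one, and without it the log2 fold change of -0.10 ± 0.12 became 0.02. The interval for Bak1 was 0.770-fold to 1.14-fold (edgeR adjusted p = 0.862).

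Ratios of Bax to the guardians are a customary summary of the balance between death and survival signals. The ratio of Bax to Bcl2 in FPKM was 2.76, 5.29 and 4.78 in the model group and 2.35, 4.22 and 2.60 in the DMDD liposome group, each in replicate order. Model replicate 1 lay among the DMDD liposome libraries and the groups overlapped. On the log2 scale the means were 2.04 ± 0.51 and 1.56 ± 0.45 (SD, n = 3 each), a difference of -0.48. It was -0.77 without model replicate 1, -0.73 without DMDD liposome replicate 2, and -0.30 and -0.31 without model replicate 2 and DMDD liposome replicate 1. The ratio of Bax to Bcl2l1 was 1.42, 1.98 and 1.87 in model and 1.76, 2.33 and 1.93 in DMDD liposome, a log2 difference of 0.20 that went to 0.05 without model replicate 1. The ratio of Bax to Mcl1 was 0.367, 0.500 and 0.384 in model and 0.419, 0.429 and 0.351 in DMDD liposome, a log2 difference of -0.06 that turned to 0.08 when model replicate 2 was left out and 0.04 when DMDD liposome replicate 3 was. Both overlapped, so 0 of the 3 ratios separated the groups and their differences did not share a sign.

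**Figure D4:**
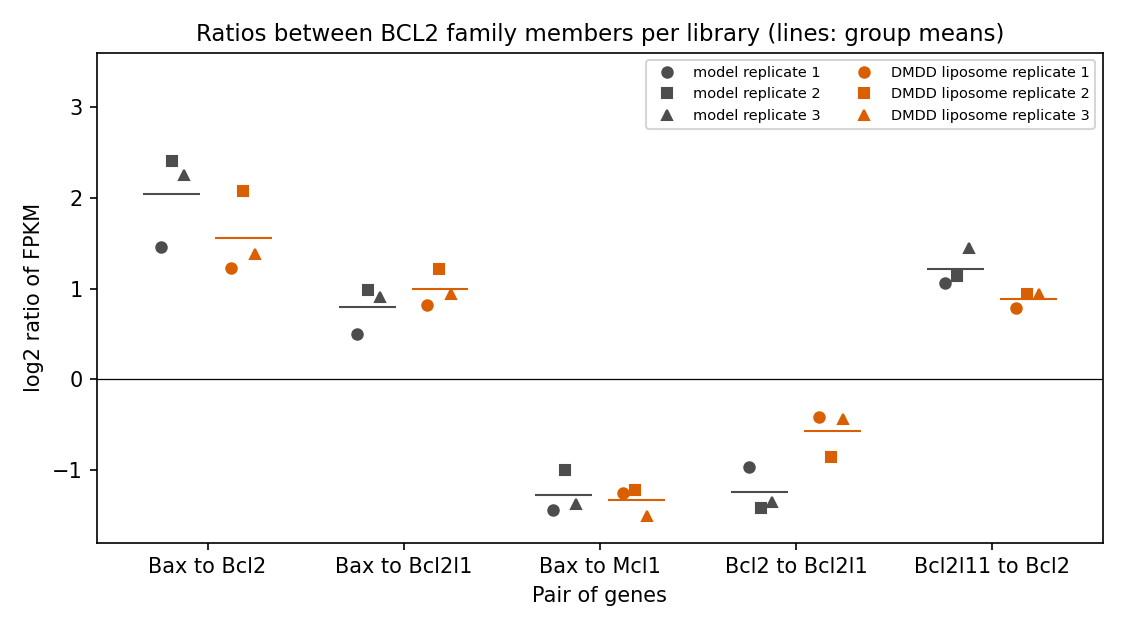
Log2 ratio of FPKM (y axis) for 5 pairs of members (x axis), with 1 marker per library and a line at each group's mean. The 3 ratios of Bax to a guardian overlap between the groups, whereas Bcl2 to Bcl2l1 and Bcl2l11 to Bcl2 do not. These last 2 pairs were chosen after their values were seen, from the 5 of 45 pairs (11.1%) without overlap.

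The groups overlapped for each of the remaining BH3-only genes. Bid, cleaved by caspase-8 to link death receptors to mitochondria, measured 45.8, 53.3 and 34.9 CPM in model and 54.9, 47.6 and 44.8 CPM in DMDD liposome. Its log2 fold change of 0.14 ± 0.17 (interval 0.833-fold to 1.45-fold, edgeR adjusted p = 0.864) turned to -0.03 without model replicate 3, the lowest library. Bad, held inactive by survival kinases, measured 33.1, 48.2 and 29.9 CPM in model and 35.5, 32.1 and 30.5 CPM in DMDD liposome. Its log2 fold change of -0.18 ± 0.19 (interval 0.648-fold to 1.20-fold, edgeR adjusted p = 0.838) turned to 0.04 without model replicate 2, the one high library. Bbc3, which encodes the p53 target Puma, measured 15.3, 18.8 and 12.6 CPM in model and 14.1, 13.7 and 12.8 CPM in DMDD liposome. Model replicate 2 was again the highest, and the log2 fold change of -0.20 ± 0.19 (interval 0.644-fold to 1.18-fold, edgeR adjusted p = 0.819) went to -0.05 without it. Pmaip1, which encodes Noxa, a partner of Mcl1, had counts of 173, 86 and 108 for model, then 111, 125 and 100 for DMDD liposome. Model replicate 1 stood alone at the top, and the log2 fold change of -0.10 ± 0.34 turned to 0.35 without it and to 0.02 in limma-voom. Of the 10 estimates that of Pmaip1 was the least precise, with an interval of 0.535-fold to 1.63-fold (edgeR adjusted p = 0.959).

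Of 20 further genes of the BCL2 family, 18 were in the table and 14 were tested, 8 of them with a positive and 6 with a negative log2 fold change and a median of 0.01, as over all genes tested. In edgeR 0 passed the adjusted test and 2 had an unadjusted p under 0.05 (7.65% of all genes), both higher in DMDD liposome. Bmf, a BH3-only protein tied to the cytoskeleton, was one, at 50.6, 29.7 and 28.4 CPM in model and 87.5, 44.3 and 68.3 CPM in DMDD liposome, for a log2 fold change of 0.88 ± 0.30 (edgeR adjusted p = 0.626). As for Bcl2, model replicate 1 was the highest model library and DMDD liposome replicate 2 the lowest treated one. Bcl2a1d, a guardian of myeloid cells, was the other, at 16.4, 17.8 and 12.4 CPM in model and 23.8, 18.7 and 24.1 CPM in DMDD liposome, for a log2 fold change of 0.51 ± 0.19 (edgeR adjusted p = 0.626). Its near-copy Bcl2a1a stood at 0.63 ± 0.29 and the sparse Bcl2a1b, named after its values were seen, at 1.19 ± 0.59. Reads shared by these copies can be split between them by the counting, so their separate values are uncertain. Macrophage and monocyte marker sums were also higher in each DMDD liposome library than in each model library, and their part in the Bcl2a1 values was not tested. Bok, an effector-like relative, measured 102, 112 and 126 CPM in model and 99.4, 98.9 and 85.1 CPM in DMDD liposome, for a log2 fold change of -0.27 ± 0.12 (edgeR adjusted p = 0.644). The groups did not overlap for 4 of the 14, namely Bcl2a1a, Bcl2a1b, Bcl2a1d and Bok, beside 12.9% of all genes.

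A list on mitochondrial release and caspase activation held 22 genes, not all of which act downstream of the pore. All 22 were tested, with 9 positive and 13 negative log2 fold changes and a median of -0.07. In edgeR 0 were called and 0 had an unadjusted p under 0.05, beside 7.65% of all genes, and the groups did not overlap for 2 of 22, beside 12.9% of all genes. These were Endog and Opa1, both named after their values were seen. Mtch2, a mitochondrial receptor for truncated Bid, stood at -0.28 ± 0.15, Casp6, an executioner caspase, at -0.27 ± 0.16, and Aifm1, a flavoprotein released with cytochrome c, at -0.16 ± 0.12.

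The death receptor arm, which reaches the mitochondrion through Bid, held 11 genes, all tested, with 5 positive and 6 negative log2 fold changes and a median of -0.02. In edgeR 0 of them had an unadjusted p under 0.05, beside 7.65% of all genes. The groups did not overlap for 0 of the 11, beside 12.9% of all genes. Fasl, the ligand of Fas made by cytotoxic lymphocytes, had 9, 15 and 4 counts in model and 37, 3 and 25 in DMDD liposome. Those counts were high in DMDD liposome replicates 1 and 3, which also led in T and NK cell markers. Tnfsf10, which encodes the ligand Trail, stood at -0.39 ± 0.69, the adaptor Fadd at -0.14 ± 0.16 and the caspase-8 inhibitor Cflar at 0.08 ± 0.10.

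Among 33 regulators of the family, 31 were tested, 14 positive and 17 negative, with a median of -0.02 and 0 past the adjusted threshold in edgeR. Foxo3, a transcription factor that induces Bcl2l11, was the 1 gene of 31 with an unadjusted p under 0.05 in edgeR and the 1 gene without overlap, beside 7.65% and 12.9% of all genes. It measured 76.4, 62.2 and 74.5 CPM in model and 85.6, 86.9 and 87.4 CPM in DMDD liposome, for a log2 fold change of 0.29 ± 0.11 (edgeR adjusted p = 0.629). Its relative Foxo1, named after its values were seen, measured 124, 59.1 and 74.9 CPM in model and 129, 80.4 and 131 CPM in DMDD liposome. Model replicate 1 and DMDD liposome replicates 1 and 3 were high for Foxo1, as for Bcl2 and Bcl2l11. The groups overlapped for Foxo1, at a log2 fold change of 0.40 ± 0.30 (edgeR adjusted p = 0.773). The part of Foxo1 or Foxo3 in the values of Bcl2 and Bcl2l11 was not tested. Sfn, an epithelial 14-3-3 protein of the family that binds phosphorylated Bad, stood at -1.05 ± 0.52, from 22.2, 114 and 96.3 CPM in model to 28.2, 38.5 and 45.8 CPM in DMDD liposome. Model replicate 1 was the lowest library for Sfn. Trib3, a stress-induced pseudokinase, stood at -0.19 ± 0.13, and Huwe1, a ubiquitin ligase for Mcl1, at -0.14 ± 0.10.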

How the data were processed

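RNA from tumors was sequenced in 3 model and 3 DMDD liposome samples, grouped by their descriptions. Per the file headers, the deposited table holds gene-level read counts, from 13037500 to 15616840 per library. It also holds a signal that the authors made by dividing counts by size factors, and FPKM deposited by the authors, which follow from counts, totals and 1 length per gene. The authors' table further gives log2 fold changes, model over DMDD liposome, with raw and adjusted p-values. Tools and builds named include DESeq2 and mm9, per the submitters' processing notes. Aligner, counter, annotation and strand setting: each was not given in the sources used here.

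The test of the counts was that of edgeR 4.0.16 under R 4.3.3 (filterByExpr with minimum count 10 and minimum total 15, TMM, quasi-likelihood, two-sided, Benjamini-Hochberg, threshold 0.05): 12891 genes were tested and 3872 not. Intervals are 95% and not adjusted. CPM are TMM-scaled, and log2 CPM used a prior count of 2. Levels of different genes are compared in FPKM only. At 3 counts a gene is at 0.192 to 0.230 CPM. Alternatives were DESeq2 size factors, no filter, DESeq2 1.42.0, limma 3.58.1 (voom with quality weights), a replicate block, a threshold of 0.01, each library left out, and for ratios a pseudocount of 1 FPKM or CPM. The edgeR script was tested on simulated data of 3 libraries per group, with 100 genes changed 2-fold and 100 changed 4-fold. It recovered 42% of the 2-fold and 86% of the 4-fold changes, with 9 false calls. Smaller changes were not simulated. Members, gene lists and tests were chosen with earlier results of these data known. Beside the 10 members, up to 4 genes per pathway list were named by smallest p (1 of them is not reported here), and the 3 genes nearest in pattern to each of the 2 members with the smallest p. Replicates of a group differed by more than sampling noise.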

Additional observations from a re-analysis of the deposited data

How the results depend on the processing

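The count of genes called over the whole table, 0 in edgeR, was 59 with DESeq2 and stayed at 0 with DESeq2 size factors, no filter, limma-voom, the replicate block and a threshold of 0.01. Leaving out 1 library gave 0 to 867, with 112 in edgeR and 867 in DESeq2 without model replicate 1, and 0 in edgeR without any other library. In DESeq2 the other left-out libraries gave 30 and 18 genes (model replicates 2 and 3) and 20, 128 and 87 (DMDD liposome replicates 1 to 3). The count of family members called was 0 to 1 over the left-out libraries, the 1 being Bcl2 in DESeq2 without model replicate 1, and 0 in each other fit. Of 170 fold changes of members under the alternatives, 13 had the opposite sign and the cause was not tested. In limma-voom they were Bax (-0.0018) and Pmaip1 (0.019). With 1 library left out, edgeR then DESeq2, they were Bax (-0.077 and -0.078 without DMDD liposome replicate 2), Bak1 (0.019 and 0.016 without model replicate 2), Bad (0.045 and 0.042 without model replicate 2), Bid (-0.027 and -0.028 without model replicate 3) and Pmaip1 (0.35 and 0.34 without model replicate 1, and in edgeR 0.0057 without DMDD liposome replicate 3). The lowest and highest over the left-out libraries in edgeR and DESeq2 were -0.08 to 0.19 for Bax, -0.35 to 0.35 for Pmaip1, -0.17 to 0.02 for Bak1 (from -0.16 in edgeR), -0.03 to 0.27 for Bid and -0.33 to 0.04 for Bad. With no change of sign they were 0.40 to 0.79 for Bcl2, 0.10 to 0.38 for Bcl2l11, 0.04 to 0.25 for Mcl1, -0.19 to -0.03 for Bcl2l1 and -0.35 to -0.05 for Bbc3. The log2 difference in Bax to Bcl2 ran from -0.77 to -0.30 over the left-out libraries, that in Bax to Bcl2l1 from 0.05 to 0.29 and that in Bax to Mcl1 from -0.14 to 0.08, which includes both signs. Each of these shifts was under 1 SD pooled over both groups.

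With the replicate number as a block, edgeR called 0 genes and 0 members, and Bcl2 stood at 0.57 ± 0.13 (adjusted p = 0.411). Deviations from the group means correlated at 0.09, 0.11 and 0.12 across genes for the same-numbered libraries, and each library correlated best with its own number, a hint from the data and not the design. Depth limits Pmaip1 most, at 86 to 173 counts per library.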

Other observations

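Of the 45 ratios that the 10 members form with each other, 5 (11.1%) did not overlap between the groups, beside 12.9% of single genes over the whole table. Ratios that share members are another measure than single genes, and no share over other gene pairs was computed. These 5 ratios were chosen after their values were seen. Bcl2 was in 3 of them. The ratio of Bcl2 to Bcl2l1, the guardians Bcl-2 and Bcl-xL, was 0.513, 0.375 and 0.392 for model, then 0.750, 0.551 and 0.739 for DMDD liposome, in FPKM. Bcl2l11 exceeded Bcl2 in every library, at 2.09, 2.21 and 2.74 times its level in model and 1.72, 1.92 and 1.92 times in DMDD liposome. The log2 ratio of Bcl2 to Bbc3 had means of 0.12 ± 0.45 and 0.87 ± 0.20 (SD, n = 3 each), that of Bbc3 to Bid -1.25 ± 0.06 and -1.58 ± 0.09, and that of Bid to Bad -0.20 ± 0.17 and 0.11 ± 0.04, model first.

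Within the BH3-only group, Bad supplied 25.8%, 35.9% and 29.0% of the summed FPKM in model and 26.5%, 26.9% and 25.5% in DMDD liposome. Bcl2l11 supplied 31.9%, 21.0% and 32.0% in model and 31.5%, 29.8% and 34.9% in DMDD liposome. Model replicate 2, the library with skin keratinocyte genes, held both the highest share of Bad and the lowest share of Bcl2l11, and the part of skin cells was not tested.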
